A study of Homo sapiens with 12 samples.

Results

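Tagged RPL12 was pulled down from 80S ribosome fractions, and the RNA recovered with the S38A form was compared with that recovered with the WT form. For each gene the quantity was the IP minus input difference in log2 CPM (counts scaled to a common library size), taken within a fraction, and the S38A value minus the WT value was the comparison. It rests on 8 of the 12 libraries of the series: 2 fractions of the WT line and 2 of the S38A line, each with 1 input and 1 IP library paired by number. The cells were HEK293, an established human embryonic kidney line, in the Flp-In T-REx version, which takes a transgene at a fixed genomic site. WT cells stably overexpressed FLAG/HA-tagged wild-type RPL12 and S38A cells the same construct with serine 38 replaced by alanine. The other line, S38D, carried aspartate at that position and is no side of the comparison. Its libraries entered the filter, scaling and spread of the fit, served to choose transcripts, and are given beside the other lines for the named identifiers. Colonies were hygromycin-selected and described as monoclonal in the protocols, and each RPL12 form was studied in a single labelled line, so form and clone cannot be told apart. Cycloheximide was present in all fractions and wash buffers, inputs received no antibody, and the IP used anti-FLAG M2. No IP from cells without a tagged protein was analysed here.

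RPL12 (uL11) belongs to the large ribosomal subunit and sits at the base of the P-stalk, the flexible arm that contacts translational GTPases during elongation. Alanine at position 38 cannot be phosphorylated, while aspartate carries a negative charge and is used as a stand-in for a phosphate. The 80S fraction of a sucrose gradient holds single ribosomes, on mRNA or empty. The series title names translation during mitosis as the study's subject, so lists of cell cycle marker genes are given separately.

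The files do not pair Ensembl identifiers with gene names, and the 59792 genes of the reference table matched 0 of the 57820 identifiers. Genes are therefore given by identifier, and neither RPL12 itself nor markers of the HEK293 line could be checked. What each named gene does is not given for the same reason.

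The first WT fraction stood apart from the other 3. Its IP library was the shallowest, with 3186164 gene counts against 5048911 in the second WT IP library and 6150315 and 7430881 in the S38A ones, while the 4 inputs held 7434431 to 8723130. ERCC spike-in RNA made up 0.116% of its input counts and 5.43% of its IP counts, a 46.7-fold ratio, against 5.31-fold in the second WT fraction and 6.28-fold and 6.80-fold in the S38A fractions. Among 11693 genes with mean CPM of at least 10, 5.24% differed by over 2-fold between the WT IP libraries. That share was 0.966% to 1.17% between the replicates of WT input, S38A input and S38A IP. The main results that rest on this fraction are given with and without it.

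No gene passed the test of the S38A minus WT difference. Of 16920 genes, 0 (0%) were higher and 0 (0%) lower in S38A at adjusted p under 0.05 (edgeR quasi-likelihood test, Benjamini-Hochberg adjustment). At unadjusted p under 0.05 there were 393 genes (2.32%), of which 107 were higher and 286 lower in S38A. DESeq2 and voom also called 0, with 406 and 271 genes at unadjusted p under 0.05. The lowest adjusted p in edgeR was 1.00. When the fit tied each IP library to its own input through a block for the fraction, 0 genes passed as well (lowest adjusted p = 0.67), but 1177 (6.96%) lay at unadjusted p under 0.05, with 549 higher and 628 lower. An equal spread of p-values would place 846 genes there, so the fit without the fraction held fewer small p-values than that and the blocked fit more.

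**Figure D1:**
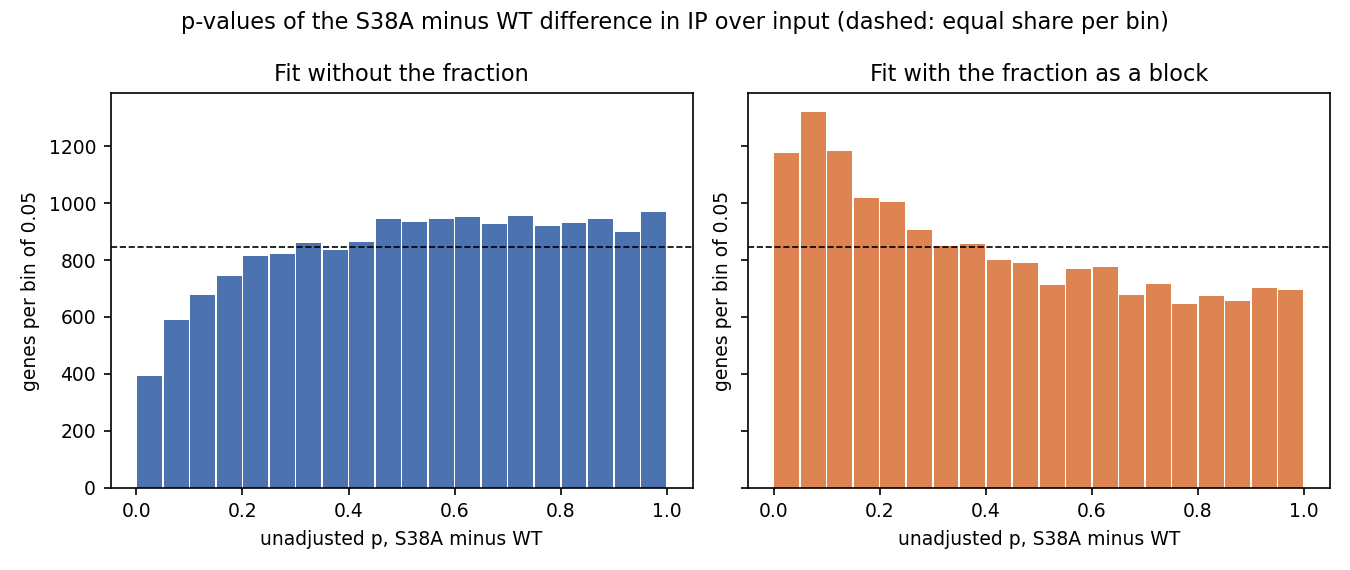
Number of genes (y axis) per bin of 0.05 in the unadjusted p of the S38A minus WT difference (x axis), for 16920 genes, in the fit without the fraction (left) and with it as a block (right). The first bin holds 393 genes on the left and 1177 on the right, and the dashed line marks 846.

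The precision of the contrast bounded what could be seen. Without the block the median standard error of a gene's log2 difference was 0.35, and the 95% interval lay entirely inside a 2-fold change in either direction for 7917 genes (46.8%). It lay inside a 1.5-fold change for 1177 genes (6.96%). With the block the median standard error was 0.24, and 10435 (61.7%) and 4355 (25.7%) genes were bounded in this way. For the remaining genes the interval reached beyond these bounds, so a change of that size was not excluded.

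IP recovery varied together across genes in all 4 fractions, most closely outside the first WT fraction. Among the genes with mean CPM of at least 10, the IP minus input differences of the second WT fraction correlated at r = 0.88 with the first S38A fraction and at 0.83 with the second. The same fraction correlated at 0.64 with its own replicate, the first WT fraction. The S38A fractions correlated at 0.80 with each other, and the first WT fraction at 0.65 and 0.55 with them. Across these 11693 genes the second WT fraction was therefore closer to both S38A fractions than to the other WT fraction. The correlations run across genes, which share libraries and normalization and are not independent replicates, so they carry no test.

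**Figure D2:**
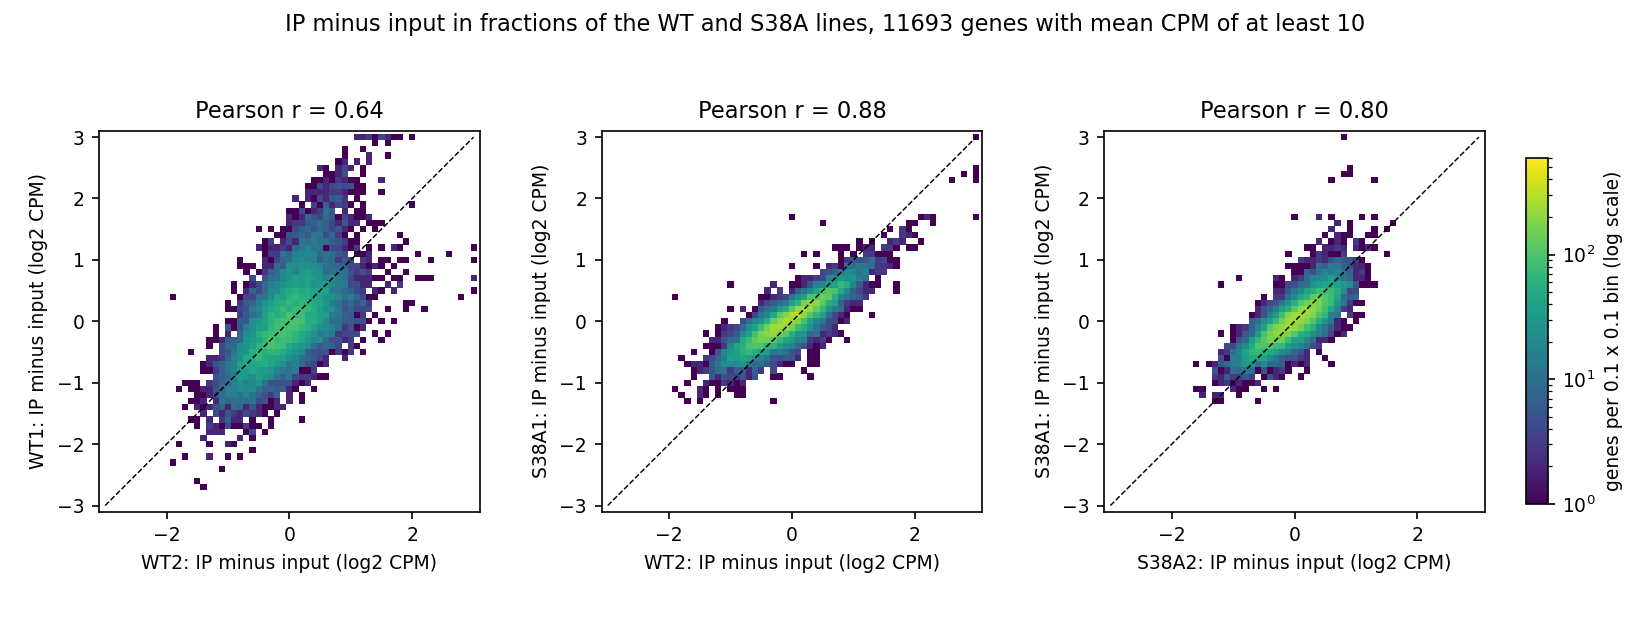
IP minus input difference in log2 CPM of one fraction (y axis) against another (x axis) for 11693 genes with mean CPM of at least 10, with colour giving genes per bin and values beyond 3 drawn at the edge. The WT fractions (left, r = 0.64) scatter more widely than the first S38A fraction against the second WT fraction (middle, r = 0.88) or the S38A fractions against each other (right, r = 0.80), and the dashed line marks equal differences.

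The order of the 4 fractions was then taken gene by gene. Both S38A differences lay above both WT differences for 3999 genes (23.6%) and below both for 2347 (13.9%). Both S38A values fell between the WT values for 3904 genes (23.1%), while both WT values fell between those of S38A for 1291 (7.63%), and the remaining 5379 (31.8%) were interleaved. The WT fractions thus enclosed the S38A fractions about as often as S38A lay above both. The split between higher and lower depended on scaling: with total counts in place of TMM factors 5860 genes were higher and 1378 lower. The median S38A minus WT difference over all genes was 0.05 with TMM factors and 0.19 with total counts, and other values should be read against it.

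The spread of IP recovery over genes was narrower in S38A than in WT. The SD over 16920 genes of the IP minus input difference was 0.80 and 0.60 in the WT fractions and 0.45 and 0.47 in the S38A fractions. The WT line averaged 0.70 ± 0.14 and the S38A line 0.46 ± 0.0097 (SD, 2 fractions per line), and they did not overlap. An exact two-sided permutation test over the 4 fractions gave p = 0.333, the smallest that 2 against 2 allows. In a single random thinning of all libraries to the depth of the shallowest one, 14985 genes passed the filter. Over these genes the SDs were 0.73 and 0.58 in WT and 0.45 and 0.48 in S38A, in the same order. The ERCC share moved along with the spread, at 4.00% ± 2.02 in WT IP and 1.79% ± 0.502 in S38A IP (SD, n = 2 each). By fraction, the widest spread (0.80) went with the highest ERCC share (5.43%) and the fewest IP counts, and both S38A fractions had lower shares and more counts than either WT one. The match was not complete. The S38A fractions had 0.45 at a share of 2.15% and 0.47 at 1.44%. The S38D fractions had 0.55 at 3.79% and 0.64 at 5.18%, against 0.60 at 2.57% in the second WT fraction. The parts of depth, of the ERCC share and of what that share reflects were not tested.

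Transcripts chosen in the S38D line, which enters neither side of the comparison, gave a further description of recovery. The IP minus input difference of the S38D libraries, averaged over its 2 fractions, was above 1 on the log2 scale for 285 genes with mean CPM of at least 5 and below -1 for 175. The gene nearest the upper threshold had 1.0003 inside it and 0.99997 outside it, and at the lower one -1.0003 and -0.9997. Beyond the shared scaling and filter no WT or S38A library entered this choice, so their values are measured separately from it. The spread over all genes was narrower in S38A than in WT. Given that spread, a set chosen for extreme recovery in another line would be expected to show smaller differences in S38A. Both sets therefore describe the narrower spread again, and the shares of all genes given beside them are not matched for recovery.

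The 285 transcripts with high recovery in the S38D IP had positive median recovery in both other lines, with lower values in S38A. Their median IP minus input difference was 1.66 in the first WT fraction, 0.94 in the second, 0.76 in the first S38A fraction and 0.67 in the second. All 4 medians were above 0, and both WT medians were above both S38A medians. Of the 285, 211 were over 2-fold higher in IP in the first WT fraction and 122 in the second, against 63 and 38 in the S38A fractions. Both S38A values were below both WT values for 183 (64.2%, against 13.9% of all genes tested) and above both for 0. The median fitted S38A minus WT difference was -0.65, and 0 of the 285 passed at adjusted p under 0.05, with 95 lower and 0 higher at unadjusted p under 0.05, against 286 lower and 107 higher of all 16920 genes. That median became -0.25 when the first WT fraction was left out, -0.33 when only its IP library was, and -0.98 without the second WT IP library. With total counts the medians by fraction were 1.30 and 0.77 in WT and 0.61 and 0.57 in S38A. These medians had the same order as the ERCC share of the IP libraries. That share was 5.43% and 2.57% in WT and 2.15% and 1.44% in S38A. The S38D IP libraries, in which the set was chosen, had shares of 3.79% and 5.18%. The part of the ERCC share in the result was not tested, while thinning to equal depth gave 1.66 and 0.93 in WT and 0.72 and 0.67 in S38A.

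The 175 transcripts depleted from the S38D IP showed the opposite sign. Their median difference was -1.25 and -1.04 in the WT fractions and -0.70 and -0.93 in the S38A fractions. They were over 2-fold lower in IP for 120 and 100 members in WT and for 21 and 66 in S38A, so the S38A fractions differed from each other here. The first S38A fraction, with the higher ERCC share in IP (2.15% against 1.44%), had the weaker median. Within S38A these medians therefore did not follow the ERCC share. Both S38A values lay above both WT values for 86 (49.1%, against 23.6% of all genes tested) and below both for 3. The median fitted difference was 0.30 and became 0.23 without the first WT fraction, 0.09 without the first WT IP library alone and 0.51 without the second. None of the 175 passed at adjusted p under 0.05 (edgeR), with 6 higher and 0 lower at unadjusted p under 0.05. Of all 16920 genes, 107 were higher and 286 lower at that threshold. With the block 24 of the 175 were higher and 0 lower, where 549 of all genes were higher and 628 lower. In both sets the S38A medians lay nearer to 0 than the WT medians, also with total counts, where those of the 175 were -1.60 and -1.21 in WT and -0.84 and -1.02 in S38A.

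**Figure D3:**
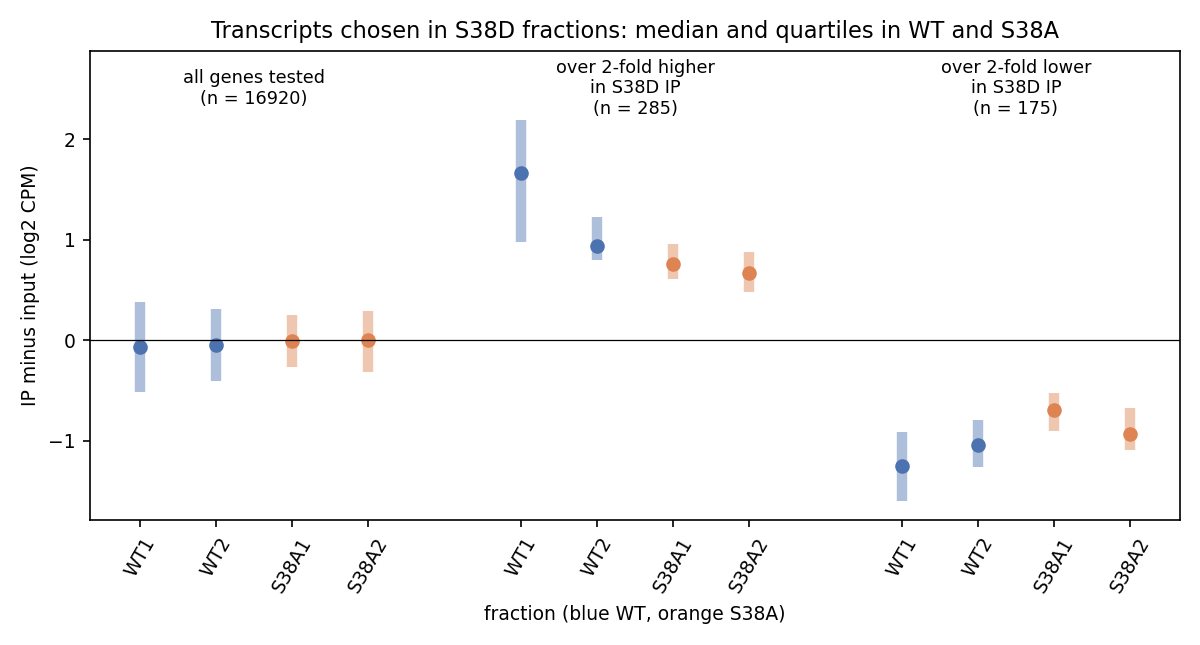
IP minus input difference in log2 CPM (y axis) in each WT (blue) and S38A (orange) fraction, for all 16920 genes tested and for the 285 and 175 genes chosen in S38D libraries, with points for medians and bars from the lower to the upper quartile. The medians of the 285 run from 1.66 in the first WT fraction to 0.67 in the second S38A fraction, and those of the 175 from -1.25 to -0.70.

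The IP and input libraries were also compared separately between the lines. For the 285 transcripts, the median log2 CPM relative to each gene's mean over the 8 libraries was 1.33 and 0.65 in the WT IP libraries and 0.23 and -0.08 in the S38A ones. In the inputs it was -0.29 and -0.38 in WT and -0.54 and -0.69 in S38A. The S38A values were lower than the WT values in both, with a median fitted difference of -0.88 in IP and -0.27 in input, so the lower inputs reduced the IP minus input difference between lines. For the 175 depleted transcripts the IP values were -0.90 and -0.45 in WT and -0.27 and -0.25 in S38A, and the input values 0.35 and 0.52 in WT and 0.45 and 0.62 in S38A, where the lines overlapped.

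Genes were also split into quartiles of abundance, taken as the mean log2 CPM over all libraries. In the quartile of most abundant genes the median IP minus input difference was 0.22 and 0.10 in WT and 0.13 in each S38A fraction. In the quartile of least abundant genes it was -0.22 and -0.09 in WT and -0.09 and -0.07 in S38A. The relation was not steady, since the next quartile up had -0.22 and -0.13 in WT and -0.09 and -0.07 in S38A. The median S38A minus WT difference was -0.02 in the most abundant quartile and 0.08 in the least abundant one, and with total counts these medians were 0.13 and 0.22. The values of the first WT fraction set the WT extremes in both quartiles.

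Identifiers were named by lowest p among genes with mean CPM of at least 5 whose fractions did not overlap between lines, 2 in each direction, and none of the 4 passed. There were 3242 such genes higher and 1794 lower in S38A. This choice favours large differences and intervals away from no change, and the intervals are not adjusted for it. ENSG00000147174.7 stood at 15.6 and 20.0 CPM in WT input and 98.4 and 50.7 in WT IP. In S38A it stood at 15.9 and 14.8 CPM in input and 24.3 and 22.5 in IP. Inputs of the lines overlapped, and the WT IP libraries were above both S38A IP libraries. Its IP minus input difference was 2.64 and 1.33 in WT against 0.60 and 0.59 in S38A, and 1.28 and 1.64 in S38D. The S38A minus WT difference was -1.45 (SE 0.39, 95% interval -2.29 to -0.61, edgeR adjusted p = 1.00), and -1.40 (SE 0.36, adjusted p = 0.67) with the block. It was -0.74 without the first WT fraction and -0.96 without its IP library alone.

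ENSG00000176049.11 had the same shape. It stood at 21.4 and 26.0 CPM in WT input and 162 and 79.5 in WT IP, and in S38A at 26.0 and 27.9 in input and 58.6 and 46.6 in IP. Both WT IP libraries were above both S38A IP libraries, by over 2-fold in the first WT fraction. Its IP minus input difference was 2.90 and 1.60 for WT, 1.16 and 0.73 for S38A, and 1.76 and 1.59 for S38D. The S38A minus WT difference was -1.37 (SE 0.38, 95% interval -2.19 to -0.55, edgeR adjusted p = 1.00), and -1.32 (SE 0.35, adjusted p = 0.67) with the block. Leaving out the first WT fraction gave -0.65, and leaving out its IP library alone gave -0.84. In S38D both identifiers were more than 2-fold higher in IP, so they belong to the 285 transcripts above.

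The identifiers higher in S38A were depleted from WT IP and close to their input in S38A IP. ENSG00000212978.5 stood at 42.5 and 42.7 CPM in WT input and 19.4 and 24.5 in WT IP, and in S38A at 36.1 and 36.5 in input and 36.7 and 33.1 in IP. Replicates lay furthest apart in WT IP, from 51 and 113 counts of this gene, and the WT IP libraries were below all others. Its IP minus input difference was -1.12 and -0.79 for WT, 0.02 and -0.14 for S38A, and -0.24 and -0.31 for S38D. The S38A minus WT difference was 0.88 (SE 0.25, 95% interval 0.35 to 1.41, edgeR adjusted p = 1.00), and 0.88 (SE 0.20, adjusted p = 0.67) with the block.

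ENSG00000114988.7 stood at 34.1 and 32.2 CPM in WT input and 18.6 and 21.7 in WT IP, and in S38A at 30.8 and 29.1 in input and 29.7 and 30.5 in IP. Here too the WT IP libraries were the lowest of the 8. Its IP minus input difference was -0.86 and -0.56 for WT, -0.05 and 0.06 for S38A, and -0.13 and -0.20 for S38D. The S38A minus WT difference was 0.72 (SE 0.24, 95% interval 0.19 to 1.25, edgeR adjusted p = 1.00), and 0.71 (SE 0.20, adjusted p = 0.67) with the block. For both of these identifiers the S38D values were nearer to those of S38A than to those of WT, a difference that was not tested.

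**Figure D4:**
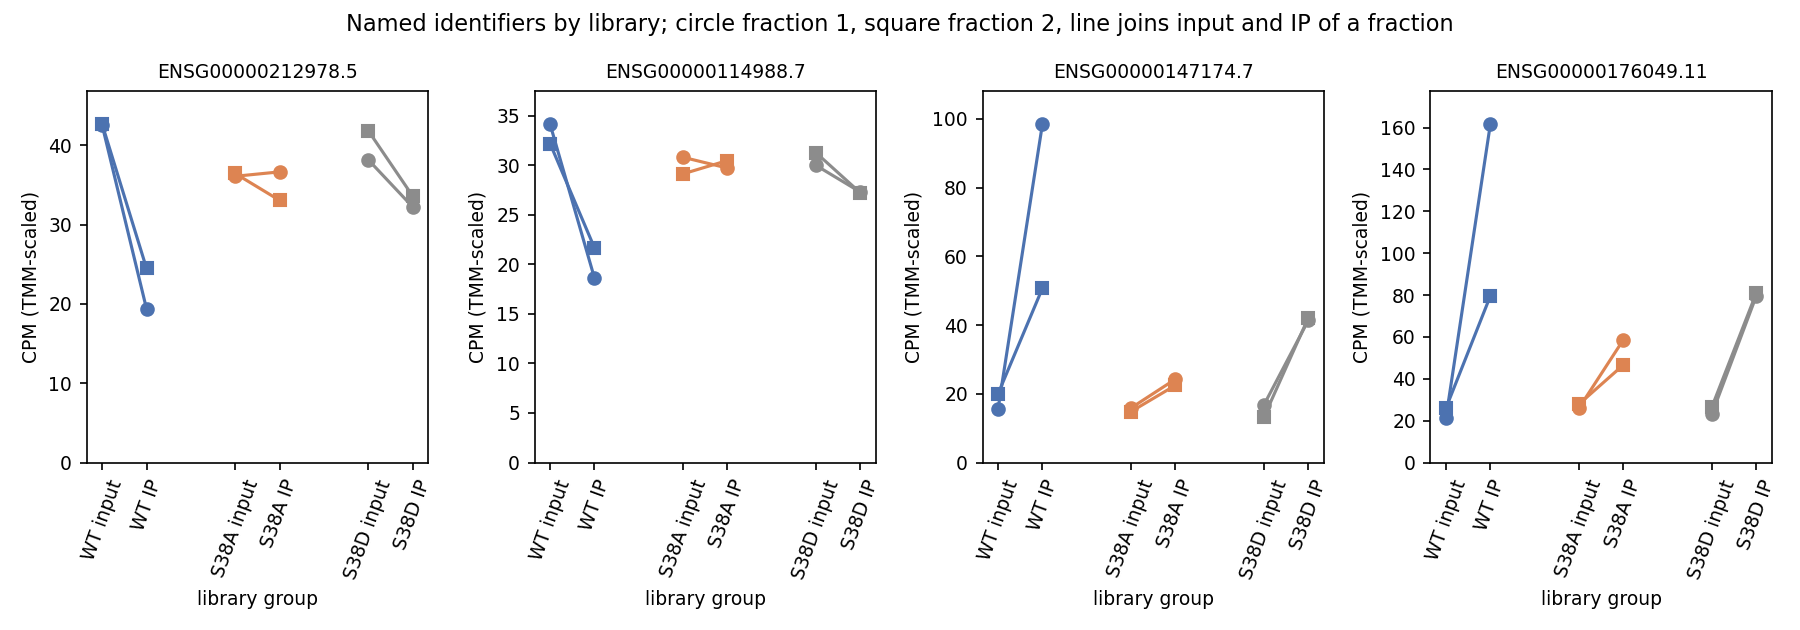
TMM-scaled CPM (y axis) of the 4 named identifiers in input and IP libraries of the WT (blue), S38A (orange) and S38D (grey) lines, with a line joining the libraries of a fraction, circles for the first fraction and squares for the second. In WT the identifiers with higher S38A values are lower in IP than in input, the other pair is higher and reaches 98.4 and 162 CPM in the first fraction, and the S38A lines are flatter.

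With TMM factors, no cell cycle marker list had both WT medians on the same side of both S38A medians. Genes of G2 and M phase are of interest because RPL12 phosphorylation was studied in mitosis. Of 208 G2M markers tested, the median IP minus input difference was 0.25 in the first WT fraction, -0.11 in the second, 0.02 in the first S38A fraction and -0.01 in the second. The WT fractions thus had opposite signs and enclosed both S38A fractions. Members higher in IP made up 64.4% and 42.3% of the 208 in WT and 51.9% and 48.6% in S38A. Over all genes the shares were 45.4% and 46.6% in WT and 49.2% and 50.1% in S38A, so the S38A shares of the markers lay near the background. The median S38A minus WT difference of -0.07 became 0.07 without the first WT fraction and -0.21 without the second. It was also 0.07 with total counts, where all genes stood at 0.19. Of the members, 0 passed at adjusted p under 0.05 in either fit. At unadjusted p under 0.05, 10 were lower and 0 higher without the block, where 286 of all 16920 genes were lower and 107 higher. With the block 15 members were lower and 4 higher, where 628 of all genes were lower and 549 higher. Both S38A values fell between the WT values for 61 members (29.3%, against 23.1% of all genes tested), below both for 36 (17.3%, against 13.9%) and above both for 44 (21.2%, against 23.6%).

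G1 markers had a positive median in every fraction. That median, over 239 members, was 0.14 and 0.07 in WT and 0.07 in each S38A fraction, and the median S38A minus WT difference was -0.01 (0.13 with total counts). All genes had medians of -0.07 and -0.05 in WT and -0.01 and 0.001 in S38A. Relative to these, the G1 medians stood higher in both WT fractions than in either S38A fraction, which was not tested. Fractions did not overlap for 64 members higher in S38A (26.8%) and 46 lower (19.2%), against 23.6% and 13.9% of all genes. S markers had medians of 0.09 and -0.02 in WT and 0.03 in each S38A fraction over 251 members, with a median S38A minus WT difference of 0.03 (0.17 with total counts). For them the numbers were 61 higher (24.3%) and 48 lower (19.1%). No G1 or S marker passed at adjusted p under 0.05 (edgeR), with 9 G1 and 7 S markers at unadjusted p under 0.05, all lower in S38A, against 286 lower and 107 higher of the 16920 genes. With the block there were 18 lower and 4 higher G1 markers and 16 lower and 7 higher S markers, against 628 lower and 549 higher genes in all. The marker lists held abundant genes, with median CPM of 70.3 (G1), 72.9 (S) and 67.1 (G2M) against 29.5 over all genes. In the most abundant quartile, 135 of 4230 genes were lower and 10 higher without the block, and 287 and 129 with it. There both S38A values lay below both WT values for 17.8% and above both for 21.3%.

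**Figure D5:**
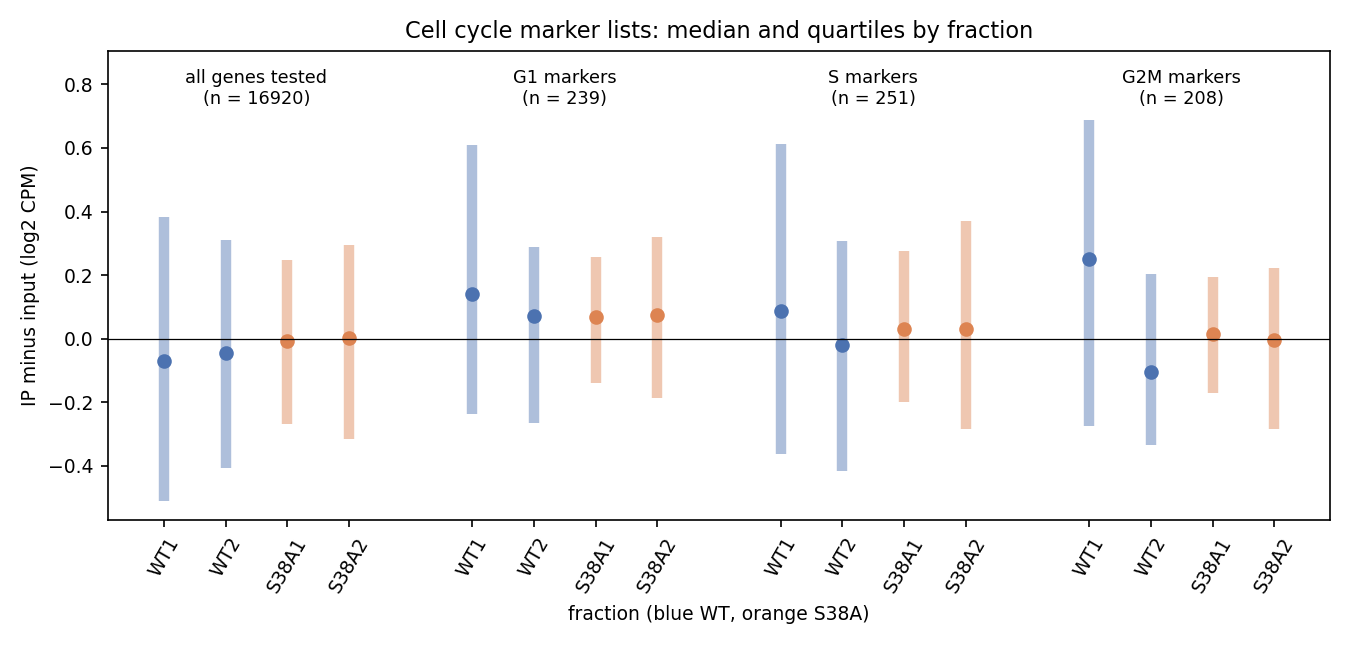
IP minus input difference in log2 CPM (y axis) in each WT (blue) and S38A (orange) fraction for all 16920 genes tested and for 239 G1, 251 S and 208 G2M markers, with points for medians and bars from the lower to the upper quartile. The G2M medians of the WT fractions lie at 0.25 and -0.11, on either side of the S38A medians of 0.02 and -0.01.

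Calls appeared in 5 alternative settings, while 21 others gave 0. Including all low-count genes gave 39 calls among 33516 genes (0.116%), each lower in S38A. All 39 also passed the filter of the main fit, with a median count per library of 712, so the added genes were not among the calls. Of the 39, 31 were among the 285 transcripts chosen in S38D, which make up 1.68% of the genes tested. The median IP minus input difference of the 39 was 2.78 in the first WT fraction, 1.13 in the second, and 0.88 and 0.66 in S38A. Leaving out the second WT IP library gave 293 calls among 17543 genes (1.67%). Of these, 288 (1.64% of genes) had lower values in S38A, and all 39 were among the 293. Their medians were 1.79 and 0.55 in WT against 0.47 and 0.30 in S38A, so in the second WT fraction they lay close to S38A. Leaving out the whole second WT fraction gave 159 calls (0.906%), all lower, and with the block 2912 (16.6%), of which 1832 were lower (10.4%). Leaving out the first WT fraction with the block gave 29 calls among 17420 genes (0.166%), 28 of them lower (0.161%). Of these 29, 12 were shared with the 2912 and 3 with the 293. The 29 had medians of 0.82 and 1.88 in WT against 1.26 and 0.68 in S38A.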

How the data were processed

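Per the labels' protocols, polyadenylated RNA came from pooled 80S sucrose gradient fractions (input) and from anti-FLAG IP of the rest of each. The authors deposited raw read counts per Ensembl gene identifier and ERCC spike-in, 1 table per library. The submitters' processing notes list STAR 2.4.2a, bcl2fastq 2.16.0.10, DESeq2 and the hg19 build. Neither the read counter nor its handling of strand is stated in the sources used here, so overlapping and near-identical genes are uncertain. The labels do not say whether replicates came from separate cultures. The p-values then describe variation among the libraries at hand, and this variation may be technical.

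Members, lists and tests were chosen with earlier results of these data known, and the S38D sets after the data had been seen. Counts without the 92 ERCC rows went into edgeR 4.0.16 (R 4.3.3) with filterByExpr by group at a minimum count of 10, TMM factors and glmQLFit over all 12 libraries. The contrast was (IP minus input in S38A) minus (IP minus input in WT), tested by glmQLFTest with Benjamini-Hochberg adjustment over 16920 genes and calls at adjusted p under 0.05. Standard errors were the log2 difference divided by the square root of F. A prior count of 2 was used for log2 CPM. The 28 lists written by symbol, 4 of them cell type markers, matched no identifier. G1, S and G2M lists came from the marker pairs of scran 1.30.0, as genes of a single phase that occur in 20 or more pairs and are the higher member in a share of 0.8 or more. Identifiers were named by the lowest p among those with mean CPM of at least 5 and fractions that do not overlap, 2 in each direction, the limit where no symbols could be had.

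Per the labels, each input is an aliquot of the fraction that went into the IP, and libraries were paired by the number in their titles. Across genes, deviations of such pairs from their group means had correlations of 0.28 for WT, 0.64 for S38A and 0.54 for S38D. Each line gives only the difference between its replicates, so these values cannot establish the pairing. Alternatives were RLE factors, total counts, other filters, DESeq2 1.42.0, voom in limma 3.58.1, the replicate block, only the 8 libraries, omission of libraries or fractions, and thinning to the shallowest depth. The fits were tested on simulated counts.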

Additional observations from a re-analysis of the deposited data

Results flagged for a closer look

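ERCC spike-in RNA, which enters none of the gene comparisons, was a greater part of the IP counts than of the input counts in both lines. In WT it averaged 4.00% of IP counts (5.43% and 2.57%) against 0.300% of input counts (0.116% and 0.484%). In S38A it averaged 1.79% of IP counts (2.15% and 1.44%) against 0.277% of input counts (0.342% and 0.211%). The spike-in amount given to the IP RNA is not stated in the sources used here. The log2 ratio of IP to input share was 3.98 ± 2.22 in WT and 2.71 ± 0.08 in S38A (SD, n = 2 fractions each), and the lines overlapped (exact two-sided permutation test, p = 1).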

How the results depend on the processing

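The number of genes passing for S38A versus WT was 0 with RLE factors, total counts, mean CPM of at least 10, DESeq2, voom, the replicate block with 12 or 8 libraries, only the 8 libraries, and thinning. It was 39 with no filter on low counts. With 1 of the 8 libraries left out it was 0 to 293, with 293 only without the second WT IP library. With a whole fraction left out it was 0 to 159 without the block, with 159 only without the second WT fraction. With the replicate block it was 29 without the first WT fraction, 2912 without the second (1080 higher and 1832 lower in S38A) and 0 without either S38A fraction. In these fits 1 WT fraction stands for the line and is assumed to vary like the others, and the cause was not tested. Fractions that did not overlap numbered 6346 of 16920 genes, 6325 with a prior count of 0.5, 7238 with total counts and 4498 with mean CPM of at least 10. The 4 named identifiers were chosen for fractions that do not overlap, which largely fixes their sign when a fraction is left out. They kept their sign in all 104 refits. In 9 of these an identifier passed, 8 times without the second WT IP library or fraction and once with no filter. The replicate block alone changed no call. Medians of gene sets moved by more than the spread between fractions in 38 of 207 refits. That spread includes the first WT fraction, so it is a wide measure. The G2M median going from -0.07 to 0.07 without that fraction was not counted as moved. For the 285 transcripts recovered in the S38D IP the median ranged from -0.99 without the second WT fraction to -0.25 without the first. DESeq2, voom and some omissions were added for these medians after seeing the data. IP depths of 3186164 to 7430881 counts limit the precision of low genes.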

Other observations

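The proportions of the ERCC spike-ins to each other differed between IP and input libraries, and the differences were alike in the 4 fractions. The labels say that spike-ins were added to extracted input RNA, and the step for IP RNA is not stated in the sources used here. Over 37 spike-ins with a mean count of at least 100, the SD of the IP minus input difference in log2 share of the spike-in total was 0.56 and 0.49 in the WT fractions and 0.43 and 0.57 in the S38A fractions. The differences correlated at 0.82 to 0.92 between fractions, and over the 17 spike-ins with at least 100 counts in each of the 8 libraries at 0.87 to 0.97. The points share their sequences and the same mix, so no test is given. For 10817 genes with a mean count of at least 100, the SD of IP minus input log2 CPM was 0.67 and 0.49 in WT. In S38A it was 0.35 and 0.40, below the SDs of the 37 spike-ins there. Over the 17 spike-ins the SDs were 0.43 and 0.46 in WT and 0.34 and 0.46 in S38A. The genes thus lay below those 17 in the second S38A fraction but not in the first. The S38A minus WT difference had an SD of 0.16 over the 37 spike-ins and 0.10 over the 17, against 0.31 over these genes. What sets the pattern was not tested.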
